A study of Homo sapiens with 14 samples.

Results

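This report describes 8 genes of the lung and endoderm lineages in A549 and H1792 cells: the transcription factor genes NKX2-1, FOXA1, FOXA2, HNF4A, GATA6, CEBPA and SOX2, and the surfactant protein gene SFTPB. They were chosen by name and matched to the gene symbols of the count tables, and all 8 were found among the 26732 genes listed for both lines. A549 and H1792 are established human lung adenocarcinoma lines, and their RNA was sequenced. Each line received 0.1 µM AMG900, a small molecule that inhibits the aurora kinases, or its solvent DMSO, and RNA was collected after 48 h. There were 4 DMSO and 4 AMG900 libraries of A549 and 3 DMSO and 3 AMG900 libraries of H1792, although the protocol in the labels gives 3 cultures per treatment. A549 was grown in DMEM and H1792 in RPMI 1640, each with FBS, and the lines were counted in separate tables, so that line, medium and table cannot be told apart.

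Lineage factors are DNA-binding proteins that set and keep the identity of an epithelial cell. NKX2-1 marks the developing lung and switches on surfactant genes in alveolar type II cells, together with the forkhead factors FOXA1 and FOXA2, GATA6 and the leucine zipper factor CEBPA. HNF4A is a nuclear receptor of liver and gut epithelium that is kept off in most normal lung epithelium, and SOX2 marks the airway side of the lung and, elsewhere, pluripotent cells. Lung adenocarcinomas without NKX2-1 are known to take up gut-like programmes that depend on HNF4A and the FOXA factors.

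In the GRCh37 annotation, NKX2-1 lies at chr14:36985597-36990354, FOXA1 at chr14:38058757-38065264, CEBPA at chr19:33790840-33793440 and SFTPB at chr2:85884437-85895864, all on the minus strand, and FOXA2 at chr20:22561636-22566093, also on the minus strand. HNF4A at chr20:42984339-43061485, GATA6 at chr18:19749550-19782491 and SOX2 at chr3:181429713-181432224 are on the plus strand. The strand setting of the read counting is not given in the sources used here. Without strand, reads of a gene and of an antisense partner cannot be told apart, and 25.3% and 18.5% of the CEBPA exon length are shared with a pair of antisense noncoding genes, 12.7% of NKX2-1 with NKX2-1-AS1 and 2.47% of GATA6 with GATA6-AS1 and 8.45% with another antisense noncoding gene. NKX2-1 also shares 32.6% of its exon length with SFTA3 on its own strand, and SOX2, whose single exon lies within SOX2-OT, shares no exon base with it.

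Promoter sequence was available in the RefSeq table of GRCh38.p14 for 7 of the 8 genes, with 10 starts in all. The 250 bases before each start were searched on both strands for short motifs of the factors themselves: the NKX2-1 core written CAAG, the forkhead forms TGTTTA and also TGTTTG, and the C/EBP form TTGCNNAA. The other motifs searched were AGATAA for the GATA factors, the form CAAAGTCC for HNF4A, and for the SOX factors the letters ATTGTT. The 4 windows below are shown because they belong to the surfactant gene and to HNF4A and GATA6. These are the 2 factor genes called in the test of a different response of the lines to AMG900, and both calls have limits given below. For the surfactant gene, the window with more matches was chosen. Letters in capitals mark the matches, on either strand, and the sequences run 5′ to 3′ on the strand of the gene.
SFTPB, start 2: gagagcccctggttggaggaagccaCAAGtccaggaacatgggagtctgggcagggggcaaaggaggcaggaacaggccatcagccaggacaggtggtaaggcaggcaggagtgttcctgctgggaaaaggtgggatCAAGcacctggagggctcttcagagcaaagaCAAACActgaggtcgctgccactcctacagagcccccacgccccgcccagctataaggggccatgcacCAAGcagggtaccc
HNF4A, start 1: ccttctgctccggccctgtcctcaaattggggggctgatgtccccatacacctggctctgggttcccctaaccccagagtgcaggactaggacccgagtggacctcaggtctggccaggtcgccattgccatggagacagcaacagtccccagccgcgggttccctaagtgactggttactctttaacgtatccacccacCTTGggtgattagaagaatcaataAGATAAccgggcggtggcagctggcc
HNF4A, start 2: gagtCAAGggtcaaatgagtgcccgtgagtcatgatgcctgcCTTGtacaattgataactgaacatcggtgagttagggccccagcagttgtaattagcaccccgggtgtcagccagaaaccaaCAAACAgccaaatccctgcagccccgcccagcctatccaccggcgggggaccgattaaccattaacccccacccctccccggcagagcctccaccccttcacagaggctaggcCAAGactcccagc
GATA6: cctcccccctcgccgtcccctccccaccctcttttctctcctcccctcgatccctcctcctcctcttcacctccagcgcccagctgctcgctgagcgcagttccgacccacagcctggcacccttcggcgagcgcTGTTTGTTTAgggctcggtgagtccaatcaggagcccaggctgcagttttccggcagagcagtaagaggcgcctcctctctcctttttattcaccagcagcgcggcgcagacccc

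SFTPB has 2 listed starts, and the window of start 1, not shown, held 1 CAAG match and no forkhead match. The window of start 2 (chr2:85668200-85668449, minus strand) held 3 CAAG matches and 1 forkhead match on the reverse strand at positions -82 to -77 from the start. HNF4A has 2 listed starts, and the counts add up transcripts from both. The window of start 1 (chr20:44355449-44355698, plus strand) held 1 GATA match and 1 CAAG match. That of start 2 (chr20:44400989-44401238, plus strand) held 1 forkhead match and 3 CAAG matches. In the GATA6 window (chr18:22169339-22169588, plus strand), the forkhead forms TGTTTG and TGTTTA overlapped at positions -115 to -106. Among 35116 RefSeq promoters of the same length, CAAG was in 80.9%, TGTTTA in 11%, TGTTTG in 12.8% and AGATAA in 9.17%. None of the 10 windows held CAAAGTCC, TTGCNNAA or ATTGTT, which were in 1.02%, 9.05% and 8.98% of all promoters, and the SOX2 window held no match to any of the 7 motifs. A match is a run of letters and says nothing of whether a factor binds there.

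Total counts per library were 4254644 to 18962883 in A549 and 42760874 to 79902934 in H1792, so a rare transcript was counted at a lower level in H1792. A549 DMSO replicate 1 was the smallest library. Levels are given as CPM, the counts of a gene for every 1000000 counts of the TMM-scaled library size, a scaling that sets the bulk of genes level between libraries. A group with no count of a gene allows up to 0.0194 CPM in H1792 and 0.0680 CPM in A549 with DMSO, taking 3 counts over the pooled libraries as the floor. The biological coefficient of variation was 12.8% in A549 and 9.60% in H1792. A gene was called changed where the Benjamini-Hochberg adjusted p of the edgeR quasi-likelihood test over all genes tested was below 0.01. The labels name separate dishes of 1 line as replicates, so the p-values measure the spread between dishes. Keratins and other epithelial markers were present in both lines, but EPCAM was at 0.287 CPM in A549 with DMSO and CDH1 at 0.697 CPM in H1792 with DMSO. The summed level of 7 mesenchymal markers was 1844 to 2246 CPM in A549 and 11058 to 11734 CPM in H1792 with DMSO, and 6 of the 7 were called higher in H1792. Of 8 epithelial markers, 3 were called higher and 5 lower there. The 7 blood and endothelial markers summed to 55.2 to 81.2 CPM in A549 and 104 to 132 CPM in H1792 with DMSO. Most of this was CD68, and PECAM1 was at 4.56 CPM in H1792. VWF was uneven, with 517 counts in H1792 DMSO replicate 2 and 64 in A549 DMSO replicate 2 beside at most 18 in the other DMSO libraries.

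**Figure D1:**
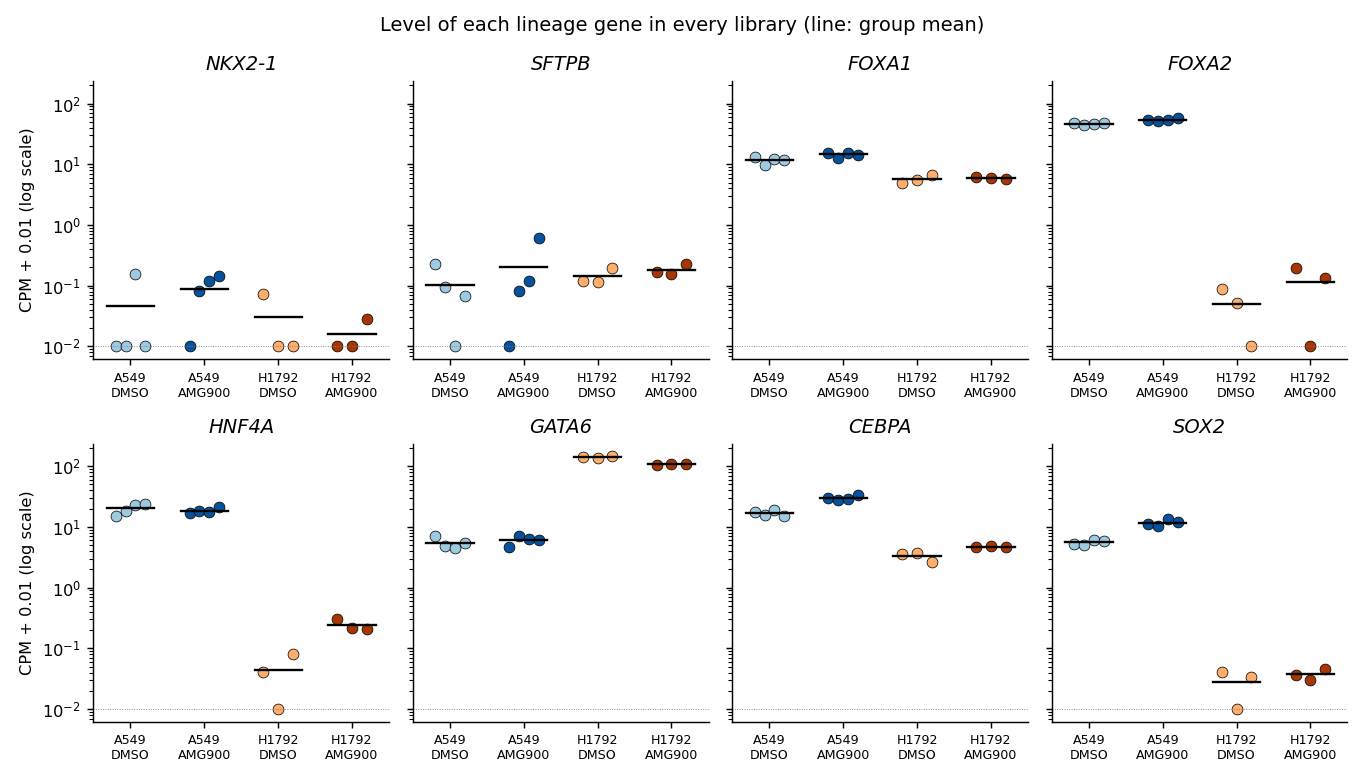
Level of each of the 8 genes in every library, as CPM + 0.01 on a log scale, with 1 point per library, a bar at the group mean and a dotted line at 0 counts. FOXA2, HNF4A and SOX2 sit high in A549 and near the dotted line in H1792, GATA6 is highest in H1792, and NKX2-1 and SFTPB stay below 1 CPM in every library.

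The 2 lines carried different lineage factors before treatment. A549 held FOXA2, HNF4A and SOX2 at levels that H1792 lacked, whereas H1792 held 27.1 times as much GATA6. CEBPA and FOXA1 were present in both lines and lower in H1792, and NKX2-1 and its target SFTPB were close to 0 counts in either. In the comparison of the DMSO groups, 6 of the 8 genes passed the filter on low counts and all 6 were called, 1 higher and 5 lower in H1792, beside 66.1% of the 14769 genes tested (34.2% higher and 31.9% lower). FOXA2, HNF4A and SOX2 passed the filter through A549, where they are high, so nothing is read from the number of calls.

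NKX2-1 was counted 0, 0, 2 and 0 times in the A549 DMSO libraries and 4, 0 and 0 times in the H1792 DMSO libraries. SFTPB, which encodes the surfactant protein B that keeps alveoli from collapsing, had 1, 1, 0 and 1 counts in A549 and 7, 5 and 8 in H1792. Thus 5 of 7 DMSO libraries held no NKX2-1 count, and both genes were below the filter. Pooled over the libraries, NKX2-1 was 1.76 times as frequent in A549 as in H1792 (exact 95% interval 0.159 to 12.3) and SFTPB 0.527 times (0.100 to 1.78), so a difference between lines was not detectable at this depth. These intervals, like all intervals on pooled counts here, cover counting error only.

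FOXA2, the forkhead factor that opens chromatin in endoderm, was the most abundant of the 8 in A549 per kilobase of exon. It stood at 47.2, 44.1, 45.7 and 46.9 CPM in the A549 DMSO libraries and at 0.0784, 0.0420 and 0 CPM in those of H1792. The groups did not come near each other. Its pooled counts were 2174 in A549 and 7 in H1792, a ratio of 1091 after division by the library totals (exact 95% interval 528 to 2716). With so few counts in H1792 the fitted log2 difference, H1792 over A549, of -9.87 (adjusted p = 3.2e-16 by edgeR) depends on the prior count.

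HNF4A was the other endoderm factor that separated the lines. Its level was 14.8, 18.5, 22.9 and 24.3 CPM in A549 with DMSO, and the pooled count in H1792 was 5 against 1022 in A549. The ratio was 718 (exact 95% interval 307 to 2216). SOX2 was counted 24, 58, 85 and 103 times in A549 and 2, 0 and 1 times in H1792, a ratio of 316 (exact 95% interval 107 to 1542). SOX2 levels in A549 varied little, from 4.99 to 6.13 CPM, and no H1792 library reached 0.04 CPM.

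GATA6, a zinc finger factor of endoderm and lung, went the other way. It was at 7.09, 4.82, 4.47 and 5.47 CPM in A549 and at 143.6, 135.0 and 145.3 CPM in H1792. The log2 difference was 4.76 (SE 0.115, adjusted p = 1.2e-17 by edgeR). Every H1792 library was far above every A549 library. FOXA1, which shares its DNA-binding domain type with FOXA2, was at 11.6 ± 1.36 CPM (SD, n = 4) in A549 and 5.69 ± 0.893 CPM (SD, n = 3) in H1792, lower by 2.03-fold (log2 difference -1.02, SE 0.142). CEBPA was at 16.9 ± 1.73 CPM in A549 and 3.33 ± 0.603 CPM in H1792, lower by 5.03-fold (log2 difference -2.33, SE 0.140). For each of these 6 genes the libraries of the lines did not overlap, which held for 68.3% of all genes tested. As FOXA2, HNF4A and SOX2 passed the filter through A549, where they are high, nothing is read from this number either.

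Per kilobase of exon, the order in A549 with DMSO was FOXA2 (16.9 CPM per kb), CEBPA (6.51), FOXA1 (2.64), SOX2 (2.23), HNF4A (1.98), GATA6 (1.44), SFTPB and NKX2-1. The length used joins the exons of all annotated transcripts of a gene. It is 10167 bases for HNF4A and 4414 for FOXA1, whose longest transcripts have 4739 and 3509. The places of HNF4A and FOXA1 in these orders therefore depend on the length chosen, and another length was not tested. FOXA2 and CEBPA stood clear of the rest, while each neighbouring pair from FOXA1 down overlapped within 1 SD of their means, apart from GATA6 and SFTPB. In H1792 with DMSO the order was GATA6 (37.2 CPM per kb), FOXA1 (1.29), CEBPA (1.28), and then SFTPB, FOXA2, SOX2, NKX2-1 and HNF4A below 0.04. FOXA1 and CEBPA were not separated there. With AMG900, SOX2 (4.64 CPM per kb) stood above FOXA1 (3.28) in A549 and CEBPA (1.81) above FOXA1 (1.35) in H1792, with no overlap of 1 SD. The change of CEBPA in H1792 was not called (adjusted p = 0.0201 by edgeR). The first gene of each order stayed in place.

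**Figure D2:**
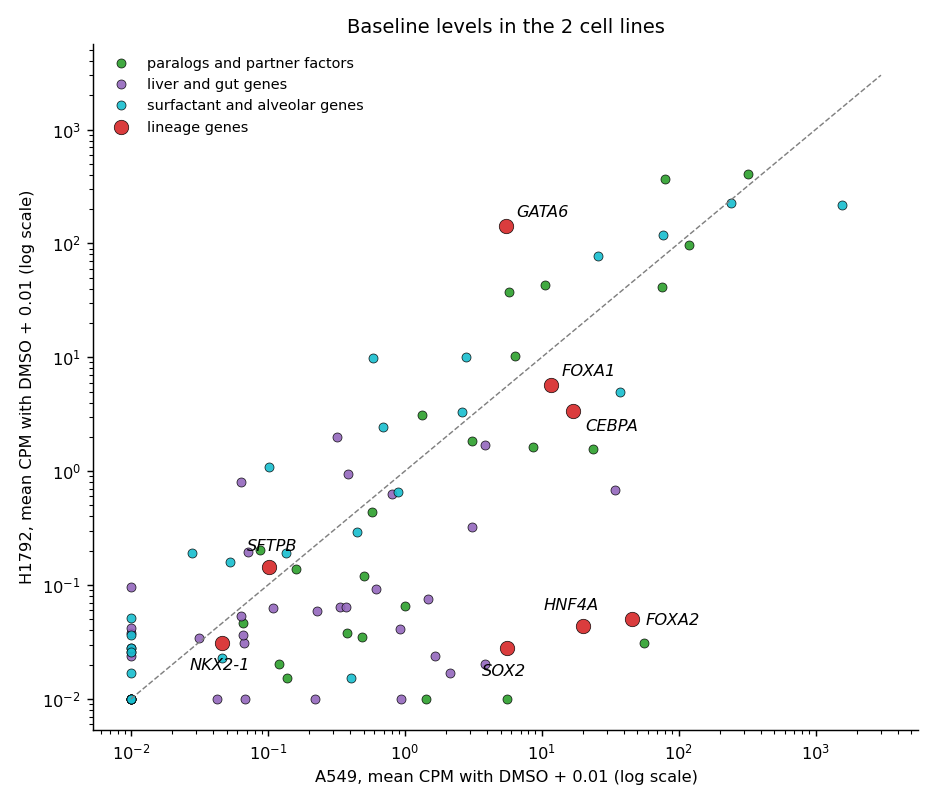
Mean level with DMSO in A549 (horizontal) and H1792 (vertical), as CPM + 0.01 on log axes, for the 8 lineage genes in red and 3 related gene lists, with a dashed line where the lines are equal. GATA6 lies above the line at 141 CPM in H1792, and FOXA2, HNF4A and SOX2 lie in the lower right, with many liver and gut genes and several paralogs.

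The partner genes of these factors were compared from lists chosen with earlier results of these data known. Over all genes tested, 34.2% were called higher and 31.9% lower in H1792. Genes almost absent from a line passed the filter through the other line, where they are high. So nothing is read from the numbers called or the medians of these lists, here and in the paragraphs on baseline lists that follow. Among 24 paralogs and partner factors, 16 were tested between the DMSO groups, 5 were higher and 8 lower in H1792, with a median log2 difference of -0.62 beside 0.04 over all genes tested. GATA4 and SOX17, an endoderm GATA factor and an endoderm SOX factor, had no count in H1792 with DMSO and were at 5.53 and 1.41 CPM in A549. GATA2, GATA3 and SOX9 were among the 5 that were higher in H1792, GATA2 at 37.8 CPM against 5.73 CPM.

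Genes that HNF4A is known to drive in liver and gut were mostly below the filter. Of 36, 15 were tested, 11 were lower and 2 higher in H1792, with a median log2 difference of -3.30. Several of the 15 were almost absent from H1792 and passed the filter through A549, so these numbers are not read as a result. APOH, a plasma protein of liver, was at 3.87 CPM in A549 and 0.0105 CPM in H1792, and VTN, which encodes vitronectin, at 34.1 and 0.674 CPM. SERPINA1, which encodes the liver protease inhibitor alpha-1 antitrypsin, was 1 of the 2 that were higher in H1792, at 1.97 against 0.307 CPM. ALB was below the filter, as were most apolipoprotein genes on the list.

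Surfactant and alveolar genes, the targets of NKX2-1 in the normal lung, changed in both directions. Of 24, 13 were tested, 6 were higher and 3 lower in H1792, with a median log2 difference of 0.25. SFTPA1, SFTPA2 and SFTPC, the other surfactant protein genes besides SFTPB and SFTPD, were below the filter in both lines. ABCA3, the lipid transporter of lamellar bodies, was at 77.2 CPM in A549 and 118 CPM in H1792 and was called higher in the latter. AGR2, a mucin-folding protein of gut and airway that led the 20 airway genes, was at 18.9 CPM in A549 and had no count in H1792 (7 tested, 1 higher and 4 lower, median log2 difference -2.42). Among 25 other lung epithelial factors, 19 were tested with 5 higher and 9 lower in H1792 and a median of -0.35. ID2, an inhibitor of helix-loop-helix factors, was at 111 CPM in A549 and 0.917 CPM in H1792.

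AMG900 was then compared with DMSO in each line, which asks what inhibition of the aurora kinases does to these genes. In A549, SOX2 and CEBPA rose, and the other tested factors were not called. In H1792, GATA6 fell. HNF4A went from 5 to 43 pooled counts there, a difference that was called but passed the filter only through the AMG900 group and lost its call in 8 of 12 alternatives. No gene of the 8 was called in both lines. In A549, 6 of the 8 passed the filter and 2 were called, beside 35% of the 13174 genes tested (17.2% higher and 17.8% lower). In H1792, 4 of the 8 passed and 2 were called, beside 35.1% of 15017 (16.2% higher and 18.8% lower). With so few genes, these shares are not a result about the group. The bulk libraries cannot tell a change in every cell from a change in the share of cells that express a gene.

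**Figure D3:**
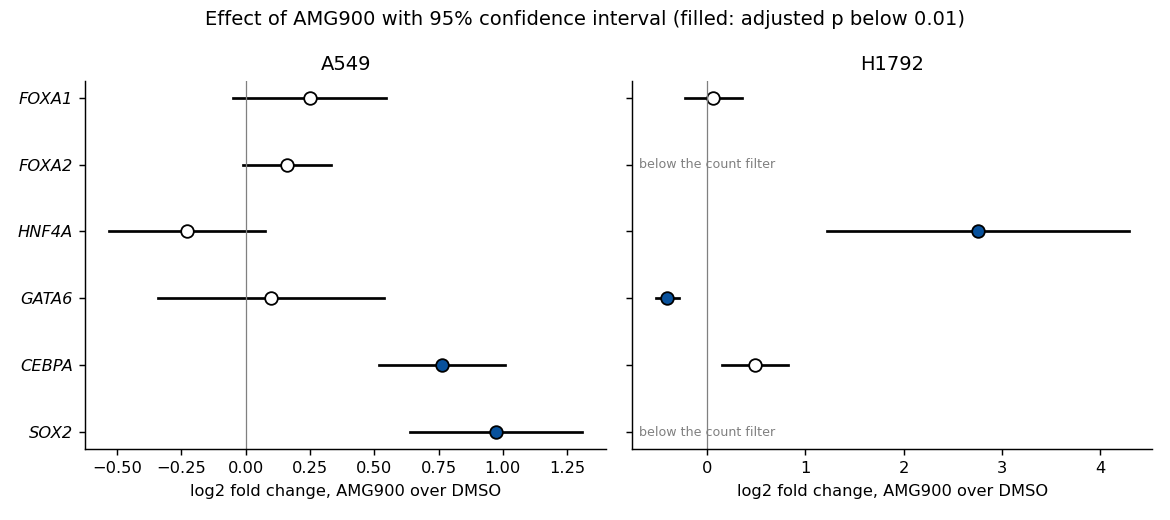
Log2 fold change with AMG900 over DMSO for the factor genes in A549 (left) and H1792 (right, on a wider axis), with a 95% confidence interval derived from the edgeR test as a bar and filled points where the adjusted p was below 0.01. SOX2 (0.97) and CEBPA (0.76) are filled in A549, GATA6 (-0.41) and HNF4A (2.76) in H1792.

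SOX2 in A549 rose from 5.32, 4.99, 6.13 and 5.93 CPM with DMSO to 11.0, 10.2, 13.3 and 12.1 CPM with AMG900. Every AMG900 library was above every DMSO library. The change was 1.96-fold (log2 0.97, SE 0.157, adjusted p = 0.00015 by edgeR). It was called under all 16 alternatives, with log2 values from 0.89 to 1.03. In this and every other tally of alternatives for a gene, the FDR of 0.05 leaves the fit unchanged and is scored at 0.01. That alternative therefore cannot change a call. In H1792, SOX2 was counted 2, 0 and 1 times with DMSO and 2, 1 and 2 times with AMG900, which gives a ratio of 1.36 with an exact interval from 0.265 to 8.75. The test of a different response of the lines had a log2 difference of -0.61 with an interval from -2.76 to 1.54, so the H1792 counts were too few to compare the responses.

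CEBPA, which halts the cell cycle and drives maturation in several lineages, stood at 17.7, 16.0, 19.0 and 15.1 CPM with DMSO and 30.2, 28.0, 29.0 and 33.7 CPM with AMG900 in A549. The groups were apart, and CEBPA rose by 1.70-fold (log2 0.76, SE 0.115, adjusted p = 8.4e-05 by edgeR). A correction for GC content reduced the log2 value to 0.27 and ended the call (adjusted p = 0.0517), and 15 of the 16 alternatives kept it. Across the genes of A549, which are not independent replicates, log2 fold changes had a Spearman's rho of 0.490 with the GC content of the exons, which is 65.9% for CEBPA. In H1792, CEBPA was at 3.62, 3.73 and 2.64 CPM with DMSO and 4.59, 4.92 and 4.60 CPM with AMG900. Those groups were apart as well, but the log2 change of 0.49 (SE 0.150) missed the threshold with an adjusted p of 0.0201 by edgeR, and was 0.12 after the GC correction. The log2 changes of the lines differed by -0.35 (interval -0.74 to 0.04, adjusted p = 0.181 by edgeR), which is not a call and does not show that CEBPA responded alike.

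GATA6 in H1792 fell from 143.6, 135.0 and 145.3 CPM to 105.0, 106.9 and 108.9 CPM. The groups were far apart for their spread, with SDs of 5.51 and 1.93 CPM. The level with AMG900 was 0.755 of that with DMSO (log2 -0.41, SE 0.0526, adjusted p = 0.00014 by edgeR), and all 14 alternatives called it, between -0.62 and -0.39. In A549 it was at 7.09, 4.82, 4.47 and 5.47 CPM with DMSO and 4.61, 7.02, 6.29 and 5.97 CPM with AMG900. These libraries overlapped, and the log2 change of 0.10 had an interval from -0.34 to 0.54. The difference between the responses of the lines was -0.62 (SE 0.164, adjusted p = 0.0097 by edgeR), in a fit that called 14.5% of 14769 genes (5.37% higher and 9.17% lower) and whose median over all genes was -0.10. That call lay close to the threshold and was lost in 12 of the 14 fits that left out a library, with adjusted p from 0.0105 to 0.0339 in those. It was also lost with the replicate block (adjusted p = 0.0384 by edgeR), with the size factors of DESeq2 (0.0232) and with total counts (0.0233), so that 7 of 22 alternatives kept it.

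The antisense gene GATA6-AS1, whose exons share 94 bases with GATA6, did not follow it. GATA6-AS1 had 161, 130 and 89 counts with DMSO and 335, 168 and 215 counts with AMG900 in H1792. It rose (log2 0.67, SE 0.162, adjusted p = 0.0059 by edgeR) while GATA6 fell. In A549 it had at most 8 counts in a library.

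HNF4A in H1792 was counted 2, 0 and 3 times with DMSO and 22, 10 and 11 times with AMG900. All AMG900 libraries were above all DMSO libraries. The pooled counts of 5 and 43 gave a ratio of 7.02 after division by the library totals (exact 95% interval 2.78 to 22.7). The edgeR log2 change was 2.76 (SE 0.692, adjusted p = 0.00726), but HNF4A passed the filter on low counts only through the AMG900 group, where it was higher. The call was lost with DESeq2 (adjusted p = 0.0119), without the filter (adjusted p = 0.0111 by edgeR) and with the replicate block (adjusted p = 0.0126 by edgeR). It was also lost in each of the 5 leave-one-out fits that gave a value (adjusted p 0.0103 to 0.0210 by edgeR). Without AMG900 replicate 1, the gene did not pass the filter. Even with AMG900, HNF4A reached only 0.290, 0.205 and 0.196 CPM in H1792, and its pooled level in A549 with AMG900 was 79.1 times as high (exact 95% interval 58.3 to 110).

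In A549, HNF4A was at 14.8, 18.5, 22.9 and 24.3 CPM with DMSO and 16.9, 18.2, 17.8 and 21.1 CPM with AMG900. The groups overlapped and the log2 change was -0.23 (SE 0.141, adjusted p = 0.198 by edgeR). After the GC correction it was -0.45 and called (adjusted p = 0.00877). The responses of the lines differed by 2.87 on the log2 scale (SE 0.585, adjusted p = 0.00129 by edgeR). HNF4A entered that fit through A549, where it is high, and the H1792 side of the difference rests on the 5 and 43 counts above, so nothing more is read from this call.

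The FOXA genes were not called in either line. FOXA2 in A549 was at 47.2, 44.1, 45.7 and 46.9 CPM with DMSO and 54.3, 52.3, 53.1 and 57.4 CPM with AMG900. Although the groups did not overlap, the change of 1.12-fold (log2 0.16, interval -0.01 to 0.33) had an adjusted p of 0.107 by edgeR, and the GC correction turned it to -0.20. In H1792, FOXA2 had 5, 2 and 0 counts with DMSO and 14, 0 and 7 with AMG900. These overlapped at 0, with a pooled ratio of 2.45 (exact 95% interval 1.00 to 6.81) and p = 0.4 in a two-sided exact permutation test whose smallest possible p is 0.1. FOXA1 changed by 0.25 (SE 0.138, adjusted p = 0.151 by edgeR) in A549 and 0.07 (SE 0.130, adjusted p = 0.696 by edgeR) in H1792, both on the log2 scale and with overlapping libraries.

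NKX2-1 and SFTPB stayed near 0 with AMG900. NKX2-1 had 0, 1, 2 and 2 counts in A549 and 0, 0 and 1 in H1792, and the exact permutation tests against DMSO gave p = 0.486 and p = 1. SFTPB had 0, 1, 2 and 9 counts in A549, where 1 library held most of them, and 12, 7 and 12 in H1792, with exact permutation p = 0.657 and p = 0.3. The smallest p that 4 against 4 libraries allow is 0.0286. Pooled SFTPB ratios were 2.92 in A549 (exact 95% interval 0.788 to 16.1) and 1.26 in H1792 (0.698 to 2.34). Of the 6 genes tested in A549, the libraries of the treatments did not overlap for 3, beside 43.9% of all genes tested there. In H1792 this held for 3 of the 4 tested, beside 59.7%, and HNF4A among them passed the filter only through the AMG900 group. With so few genes, nothing is read from these numbers.

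**Figure D4:**
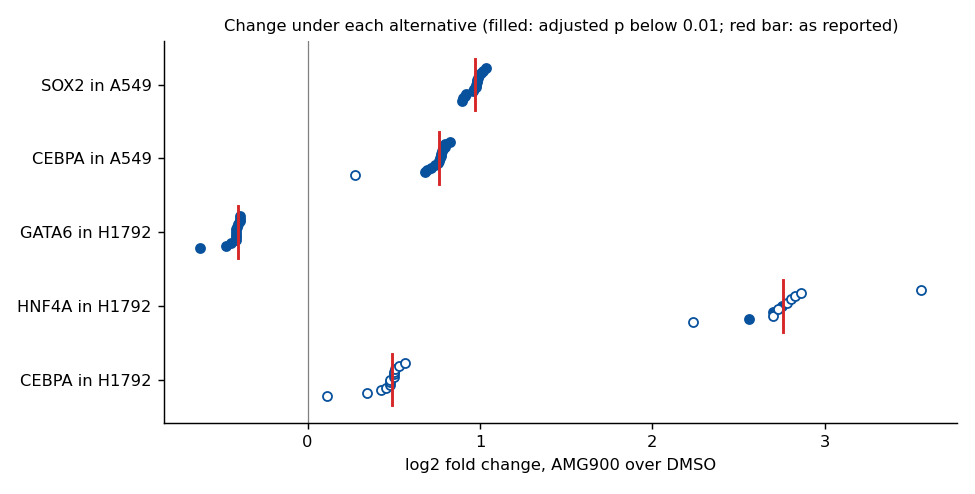
Log2 fold change with AMG900 over DMSO for 5 gene and line pairs under each alternative processing or left-out library, with filled points where the adjusted p was below 0.01 and a red bar at the reported value. The FDR of 0.05, which leaves the fit unchanged, is not drawn. SOX2 in A549 and GATA6 in H1792 are filled throughout, CEBPA in A549 has 1 open point at 0.27, and HNF4A in H1792 has mostly open points between 2.23 and 3.56.

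Several paralogs of the factors changed with AMG900. Over all genes with a known GC content, log2 fold changes with AMG900 had a Spearman's rho with it of 0.490 in A549 and 0.477 in H1792. The numbers called and the medians of the lists, here and below, were not recomputed with the GC correction, so the part of GC content in them was not tested. Over all genes tested, 17.2% were called higher and 17.8% lower in A549, and 16.2% and 18.8% in H1792. Some list genes passed the filter only through the AMG900 group, where they were higher. So nothing is read from the numbers called or the medians of these lists. Of 15 paralogs and partner factors tested in A549, 6 rose and 0 fell, with a median log2 change of 0.64 beside -0.01 over all genes. CEBPD, a C/EBP factor of stress and inflammation, rose from 78.9 to 158 CPM (log2 0.95, SE 0.129), and NKX2-8, a relative of NKX2-1, from 3.07 to 8.20 CPM (log2 1.37, SE 0.222). GATA5, another endoderm GATA factor, rose from 0.988 to 2.88 CPM (log2 1.34, SE 0.338). It is among the 6, had 2 to 25 counts in the A549 DMSO libraries, and passed the filter only through the AMG900 group, where it was higher. In H1792, 14 were tested and 1 rose, GATA3 (log2 0.54, SE 0.0976), while SOX4 fell (log2 -0.53, SE 0.0565), with a median of 0.20 beside 0.01. The responses of SOX4 and CEBPD differed between the lines, by -1.47 (SE 0.0926) and -1.10 (SE 0.170).

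Of the liver and gut genes, 11 were tested in A549, where 4 rose and 0 fell, with a median log2 change of 0.95 beside -0.01 over all genes. HNF4A itself was not called there. VTN rose from 34.1 to 119 CPM (log2 1.72, SE 0.0861), SERPINA1 from 0.307 to 1.70 CPM and F2, which encodes prothrombin, from 1.47 to 4.29 CPM. SERPINA1 had 1 to 8 counts in the A549 DMSO libraries and passed the filter there only through the AMG900 group, where it was higher. In H1792, 8 were tested and 1 rose, the membrane mucin MUC13, from 1.68 to 4.76 CPM (log2 1.51, SE 0.177), with a median of 0.85 beside 0.01. Among them only VTN differed in its response between the lines (log2 -1.59, SE 0.285), of 15 tested.

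Of the surfactant and alveolar genes, 9 were tested in A549, where 4 rose and 1 fell (median log2 change 0.44), and 14 in H1792, where 3 rose and 2 fell (median 0.14). In H1792, 1 of these 3 passed the filter only through the AMG900 group, where it was higher. CTSH, a lysosomal protease, rose in both lines, by 0.83 (SE 0.0804) and 0.63 (SE 0.123) on the log2 scale. Among the other lung epithelial factors, 5 rose and 5 fell of 17 tested in A549, and 3 rose and 4 fell of 19 in H1792. ELF3, an epithelial ETS factor, rose in each, by 0.82 (SE 0.0659) and 0.90 (SE 0.0889). Epithelial markers rose in 6 of the 6 tested in A549 (median 0.61 beside -0.01 over all genes, of which 17.2% were called higher) and in 3 of 8 in H1792 (median 0.31 beside 0.01, with 16.2% called higher). Mesenchymal markers were split, with 2 up and 3 down of 6 in A549 and 1 up and 3 down of 7 in H1792. Blood and endothelial markers rose in 1 of 1 tested in A549 and 3 of 4 in H1792, and 1 of those 3 passed the filter only through the AMG900 group. The sum of these markers, most of it the lysosomal gene CD68, ranged over 55.2 to 81.2 CPM with DMSO and 152 to 171 CPM with AMG900 in A549, and over 104 to 132 CPM and 180 to 205 CPM in H1792. Mesenchymal sums with AMG900 were 2233 to 2359 CPM in A549 and 10044.8 to 10099.5 CPM in H1792. Epithelial sums were 7537 to 9798 CPM with DMSO and 10713 to 12627 CPM with AMG900 in A549, and 1582 to 1985 CPM and 2008 to 2051 CPM in H1792, and the part of these markers in the changes of CEBPA, SOX2, GATA6 and HNF4A was not tested.

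Finally, the genes whose centred log2 CPM lay nearest to each factor over the 14 libraries were listed by root mean square distance. With the lines far apart, these distances mostly describe the line difference. SFRP4 (distance 0.24, r = 0.997) and EN1 (0.26) were nearest to SOX2, a secreted Wnt modulator and a homeobox factor. S100P (0.32, r = 0.996) and COL4A2 (0.41) were nearest to HNF4A, and PPFIBP2 (0.44, r = 0.995) and CYP24A1 (0.46) to FOXA2. For GATA6 they were ARL9 (0.23, r = 0.996) and SLC12A8 (0.26), for CEBPA NPR1 (0.15, r = 0.994) and YBEY (0.16), and for FOXA1 AKIP1 (0.14, r = 0.971) and RARA (0.15). The libraries share line, depth and medium, so no p is given.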

How the data were processed

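RNA was sequenced from A549 and H1792 cells on an Illumina NextSeq 500. The authors deposited raw read counts per gene symbol, 1 table per line, without normalization. The submitters' processing notes name STAR, HTSeq and hg19/GRCh37, with no versions, and the annotation and counting options are not given in the sources used here. In the H1792 table, 28 entries that bear dates in place of symbols (0.101 to 0.117% of the counts) were left out. Replicates differed by more than sampling noise (chi-square per gene 3.31 to 48.3), so each was counted once.

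Computations ran in R 4.3.3 (edgeR 4.0.16 on limma 3.58.1, with DESeq2 1.42.0 as an alternative) and Python 3.11.15 (scipy 1.17.1 and matplotlib 3.10.9). Genes were kept by filterByExpr and scaled by TMM. AMG900 was compared with DMSO within each line, and the baseline and the difference between responses were tested in 1 fit over all 4 groups, by the edgeR quasi-likelihood test at an FDR of 0.01. Genes below the filter were tested by exact permutation of CPM, with exact intervals on pooled counts. Log2 CPM used a prior count of 2. The edgeR test itself gives no SE, so each SE is the absolute log2 change divided by the square root of the F statistic of the test. Confidence intervals of log2 changes were built from these SEs with the t distribution and are approximate. Precision is limited by counting error for genes with few counts and by the spread between dishes otherwise. The fits were tested on simulated data, where the test of the difference between responses recovered the fewest changed genes, and the limits for passing were set after this was seen.

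The 8 genes and the lists were chosen with earlier results of these data known. Named are all 8, the 3 called genes with the largest change from each list and comparison, and the 2 nearest genes of each factor. Other genes were chosen for naming after their values were seen: the marker VWF, and ALB, ABCA3, GATA2, SOX9, SFTPA1, SFTPA2 and SFTPC. Not every gene under this rule is printed, and 1 of them is not reported here.

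Alternatives were DESeq2, its size factors, scaling by total counts, no filter, at least 10 counts in every library, an FDR of 0.05, a spline correction for GC content (5 degrees of freedom), a replicate block, only the DMSO libraries for the baseline, and each library left out. GC content came from the GRCh37 annotation for 22365 of 26732 symbols, matched by current symbol. Same-numbered libraries had no correlation of deviations above 0.1, so the numbers did not pair them.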

Additional observations from a re-analysis of the deposited data

Results flagged for a closer look

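In A549 with DMSO, NKX2-1 was at 0.144 CPM (2 counts) in replicate 3 and at 0 in the other 3 libraries, so that library was set apart. NKX2-1-AS1, which overlaps NKX2-1, also had 2 counts in that library and none in any other. Of the 8 genes in the 2 groups of 4 libraries, 16 sets of values were examined this way, and chance marks about 1 in 20 sets of continuous values. Where 3 of 4 libraries are at 0, the fourth is always marked, so that rate does not apply here.

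The response of HNF4A to AMG900 differed between the lines by 2.87 on the log2 scale (H1792 minus A549, edgeR interaction test, adjusted p = 0.00129), with all 3 H1792 AMG900 libraries above the 3 DMSO libraries and overlapping groups in A549. The H1792 side rests on 2, 0 and 3 counts against 22, 10 and 11, and the change within H1792 lost its call in 8 of 12 alternatives. The response of GATA6 differed by -0.62 (edgeR interaction test, adjusted p = 0.0097), with all 3 H1792 AMG900 libraries below the 3 DMSO libraries and overlapping groups in A549, and 15 of 22 alternatives lost this call.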

How the results depend on the processing

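The baseline differences of GATA6, FOXA1 and CEBPA and the changes of SOX2 in A549 and GATA6 in H1792 kept their direction and their call under every alternative that gave a value. With at least 10 counts in every library, FOXA2, HNF4A and SOX2 were not tested between the lines, which left 2 of the genes called lower in H1792 and 0 called higher in the test of the difference between responses. In A549 the GC correction left 1 gene called higher and 1 called lower, and turned the log2 changes of FOXA2 to -0.20 and GATA6 to -0.12. In H1792, FOXA1 turned to -7.97e-05 with total counts, -0.024 with the GC correction and -0.052 without DMSO replicate 1 (-0.052 to 0.19 with a library left out), and the SOX2 difference between responses turned to 0.0029 without that library (-1.07 to 0.0029). The number of genes called higher in H1792 was 2 of the 8 at an FDR of 0.05 and 0 with DESeq2, without a filter, with at least 10 counts, with the replicate block and in all fits that left out a library (0 to 0). The number called lower in the difference between responses was 0 with the size factors of DESeq2, with total counts and with the replicate block, and 0 to 1 with a library left out. The replicate block changed no other call among the 8 genes. Over all genes, an FDR of 0.05 gave 3689 called higher in H1792 and 1319 higher and 2297 lower in the difference between responses, where DESeq2 gave 1416 higher. With a library left out, H1792 gave 1382 to 3047 higher and 1853 to 3656 lower. The lowest counts came without AMG900 replicate 1, and 1464 were higher without AMG900 replicate 2 and 1524 without DMSO replicate 3. The causes of these shifts were not tested, apart from the fewer genes or libraries that a filter or a left-out library leaves. The depth of A549 and the few counts of NKX2-1, SFTPB and, in H1792, FOXA2, HNF4A and SOX2 limit their comparisons.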

Other observations

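Among the airway genes, KRT15, a basal keratin, rose with AMG900 in A549 from 0.510 to 2.71 CPM (log2 2.41, SE 0.527, adjusted p = 0.00173 by edgeR) and in H1792 from 0.752 to 1.88 CPM (log2 1.32, SE 0.234, adjusted p = 0.00099 by edgeR). NGFR, a basal cell receptor, rose in A549 from 0.236 to 1.34 CPM (log2 2.31, SE 0.540, adjusted p = 0.0028 by edgeR). PIGR, which carries antibodies across epithelium, rose in H1792 (log2 1.54, SE 0.301, adjusted p = 0.0018 by edgeR). The A549 DMSO libraries held 0 to 6 counts of NGFR and 0 to 15 of KRT15. Both genes needed the AMG900 group, where they were higher, to pass the filter on low counts in A549. In all, 2 of 5 tested airway genes rose in A549 and 2 of 4 in H1792, and none fell in either. Over all genes tested, 17.2% were called higher in A549 and 16.2% in H1792, and so few airway genes were tested that the H1792 number is not read as a result. KRT15 and NGFR are the 2 in A549, so nothing is read from that number. Neuroendocrine markers were not called with AMG900 (2 tested in A549 and 1 in H1792), whereas CHGA and SYP were both lower in H1792 than in A549 with DMSO. FOXM1, a forkhead factor of the cell cycle, fell in A549 from 218 to 28.6 CPM (log2 -3.01, SE 0.103), and its response differed between the lines by 2.71 (SE 0.128).

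The noncoding gene LINC00261, a neighbour of FOXA2, was at 1.27 CPM in A549 with DMSO and 0.0122 CPM in H1792. CEBPA-AS1 was at 3.83 (SD 2.55) and 0.859 CPM, lower in H1792 (log2 difference -1.99, SE 0.391). It was not called with AMG900 in either line, and its response was not tested against that of CEBPA.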
